A study of Mus musculus with 96 samples.

Results

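The 35 genes described here are genes of collagen, extracellular matrix and fibroblasts, measured in the mouse hippocampus, thalamus and hypothalamus after traumatic brain injury. The genes were chosen by name, and all 35 were found among the 32594 rows of both gene count tables and passed the filter on low counts in every fit. The 96 libraries are bulk mRNA-seq of 3 regions taken 3 or 29 days after injury (dpi), in 4 groups of 4 libraries for each region and time. Mice were male C57BL/6 of 8 to 10 weeks. TBI is a controlled cortical impact on the exposed cortex after a craniectomy, and Sham is a scalp incision with the skull left closed, so the craniectomy belongs to the TBI groups alone. CD is candesartan, a blocker of the angiotensin AT1 receptor, at 0.1 mg/kg per day, and VH is its vehicle. In the 3 dpi cohort the agent was injected at 6, 24 and 48 h, while in the 29 dpi cohort 1 injection at 6 h was followed by an osmotic pump from 24 h. Time after injury can therefore not be told apart from route and cohort. The vehicle arm is Sham + VH with TBI + VH, and the candesartan arm is Sham + CD with TBI + CD.

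In the brain, fibrillar collagens are largely restricted to the meninges and the walls of larger vessels, where fibroblasts make them. Basement membranes of collagen IV, laminins, nidogens and perlecan wrap every vessel and underlie the pia, and the parenchyma itself holds a loose matrix of proteoglycans. After a lesion, astrocytes, fibroblasts and mural cells are known to deposit fibronectin, tenascin and collagens around the damaged tissue, and integrins on many cells bind these proteins. The genes are described here by role: fibril-forming collagens, collagen VI, basement membrane, small leucine-rich proteoglycans, matrix glycoproteins, cross-linking enzymes and receptors.

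Total counts per library ranged from 17150610 to 31253784 at 3 dpi and from 6663629 to 38589791 at 29 dpi. The hippocampal labels fitted the neuronal markers. There 9 hippocampal neuron genes summed to between 815.5 and 1290 CPM (counts divided by the TMM-scaled library size), against at most 278.4 in the other regions. Thalamus and hypothalamus were set apart less sharply. At 3 dpi 10 hypothalamic neuron genes summed to between 924.2 and 1881 CPM in hypothalamic libraries and between 18.73 and 708.4 CPM in thalamic ones. A hippocampal Sham + VH library at 29 dpi reached 100.2 CPM. Libraries also differed in 20 genes of choroid plexus epithelium, the secretory tissue of the ventricles that adjoins the hippocampus. At 3 dpi in the hippocampus their sum was between 6380 and 8916 CPM in Sham + VH replicates 1, 2 and 4 and 4001 CPM in TBI + CD replicate 1, and between 157.5 and 485.5 CPM in the other 12 libraries. At 29 dpi 7 hippocampal libraries of all 4 groups exceeded 1000 CPM. In the thalamus 3 libraries at 3 dpi (Sham + VH replicates 1 and 3 and Sham + CD replicate 3, 1336 to 5488 CPM) and 4 at 29 dpi (2271 to 6280 CPM) did so, and no hypothalamic library held over 582.8 CPM. In bulk tissue, a gene at a lower level because fewer cells of a type are present cannot be told apart from less RNA per cell.

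In the hippocampus of Sham + VH mice at 3 dpi, the genes spanned more than 3 orders of magnitude when levels were divided by exon length (GENCODE vM21). Sparc, a secreted collagen-binding glycoprotein, was highest at 102.8 ± 7.09 CPM per kb (SD, n = 4). Col6a1, a chain of the microfibrillar collagen VI, followed at 16.3 ± 2.91 CPM per kb, then Col4a2 at 15.9 ± 1.59 and the integrin chain Itgb1 at 13.1 ± 0.848. At the other end were Itga1, the collagen-binding integrin chain, at 0.231 ± 0.0385 CPM per kb and Lox, a collagen cross-linking enzyme, at 0.0670 ± 0.0378. Of the 34 neighbouring pairs in this order, 29 had overlapping ranges over the 4 libraries, so most adjacent ranks were not separated.

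**Figure D1:**
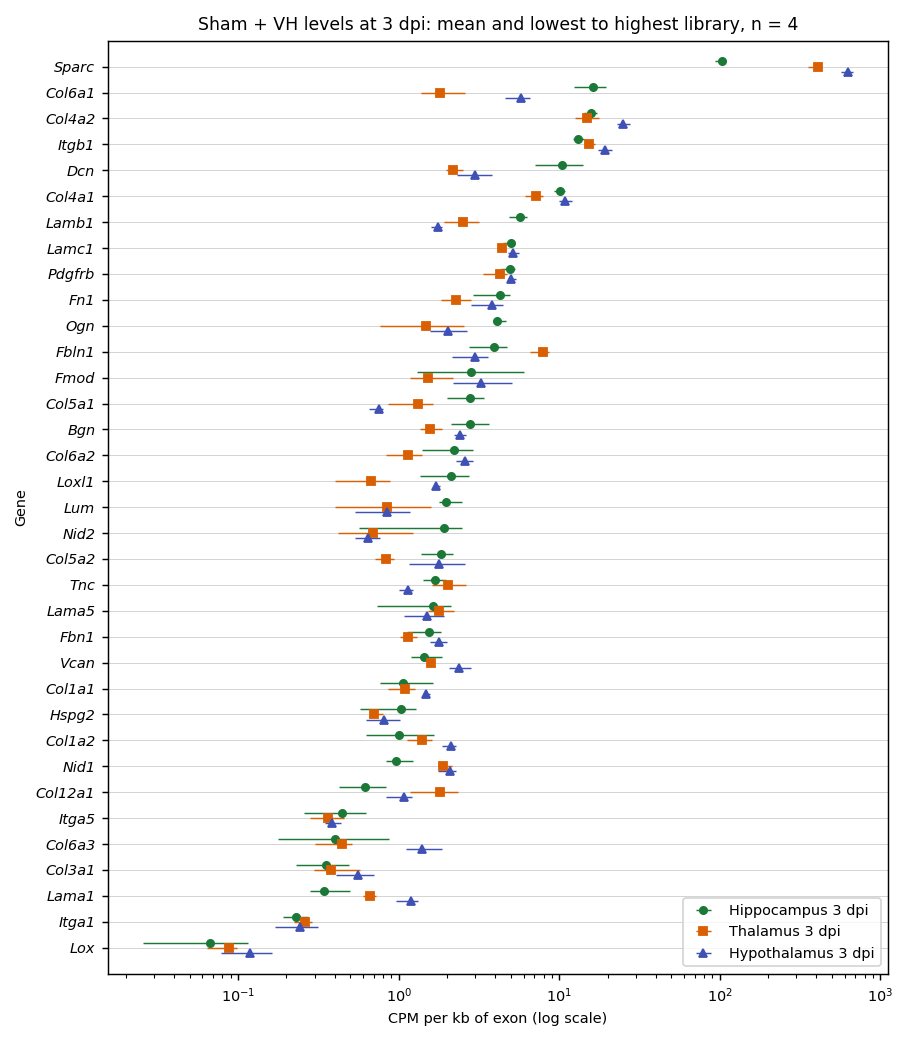
Level of each gene in Sham + VH libraries at 3 dpi in CPM per kb of exon on a log scale, with symbols at the mean of 4 libraries and lines from the lowest to the highest library. Sparc lies well to the right of all other genes in each region and is lowest in the hippocampus, while Col6a1 is highest in the hippocampus.

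The Sham + VH levels differed between regions for many of the genes, in a shared fit of the 48 libraries at 3 dpi, whose common scaling is used for the levels that follow, all of them Sham + VH unless another group is named. Hippocampus and thalamus differed for 20 of 35 genes (15 higher and 5 lower in the hippocampus), where 40.9% of all genes tested were called (19.4% higher and 21.5% lower). Called here means a false discovery rate (FDR) under 0.05 in edgeR's quasi-likelihood test and an absolute log2 fold change over 0.32. Col6a1 was 90.8, 76.5, 58.4 and 78.7 CPM in the hippocampus, 7.37, 7.08, 6.10 and 11.4 CPM in the thalamus and 18.99, 24.5, 26.7 and 23.9 CPM in the hypothalamus. No hippocampal Sham + VH library overlapped those of the other regions, though Sham + CD replicate 4 of the hippocampus, at 23.0 CPM, lay among the hypothalamic values. The log2 difference from the thalamus was 3.25 ± 0.29 (SE, edgeR FDR 6.31e-13). Dcn, the collagen-binding proteoglycan decorin of fibroblasts, was 44.1 to 87.1 CPM in the hippocampus against 11.7 to 14.8 CPM in the thalamus, a log2 difference of 2.33 ± 0.36. Loxl1, an enzyme that cross-links elastin, was 4.79 to 9.64 CPM against 1.35 to 2.94 CPM, a log2 difference of 1.72 ± 0.20. The choroid plexus sum differed between the regions in the same Sham + VH libraries, with medians of 6723 CPM in the hippocampus, 1111 CPM in the thalamus and 299.5 CPM in the hypothalamus, each on the scaling of its own region. The sum of 20 meningeal and perivascular fibroblast genes had medians of 417.0, 254.2 and 296.8 CPM. That of 13 endothelial genes was lowest in the hippocampus, with medians of 266.6, 304.6 and 288.9 CPM and overlapping ranges. Without the 7 libraries of the 48 above 1000 CPM of the choroid plexus list, a setting added after the values were seen that leaves 1 hippocampal and 2 thalamic Sham + VH libraries, 13 of the 35 genes (7 higher and 6 lower) were called beside 31.3% of all genes. Col6a1 was then at 2.67, Dcn at 1.92 and Loxl1 at 1.47, while Hspg2 turned to -0.26. With 1 hippocampal Sham + VH library the spread in this setting comes from the other groups.

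Against the hypothalamus, 21 of 35 genes were called (12 higher and 9 lower in the hippocampus), beside 46.7% of all genes (23.2% higher and 23.5% lower). Sparc was lower in the hippocampus than in both other regions: its hippocampal libraries held 377 to 441 CPM, the thalamic ones 1351 to 1645 CPM and the hypothalamic ones 1991 to 2396 CPM. Its log2 difference between hippocampus and hypothalamus was -2.42 ± 0.10 (SE, edgeR FDR 1.35e-23). Col5a1, a chain of the collagen V that nucleates fibrils, was 18.1 to 30.8 CPM in the hippocampus and 5.27 to 6.32 CPM in the hypothalamus, a log2 difference of 2.07 ± 0.21. Lamb1, a laminin beta chain, was 51.98 to 66.5 CPM and 14.6 to 17.1 CPM, a log2 difference of 1.89 ± 0.12. Dcn was 12.8 to 20.6 CPM in the hypothalamus, below the 4 hippocampal Sham + VH libraries, with a log2 difference of 1.98 ± 0.35. Hippocampal Sham + CD replicate 4 held 12.5 CPM of Dcn, lower than these hypothalamic values. Without the libraries of high choroid plexus sum, 12 genes (5 higher and 7 lower) were called against the hypothalamus beside 37.3% of all genes. The log2 differences were then -2.56 for Sparc, 1.60 for Col5a1, 1.68 for Lamb1, 1.43 for Dcn and 1.32 for Col6a1. Here too 1 hippocampal Sham + VH library is left, so the spread comes from the other groups. Between thalamus and hypothalamus 17 genes were called (5 higher and 12 lower in the thalamus), beside 28.6% of all genes (14.7% higher and 13.9% lower). Fbln1, a matrix glycoprotein of vessel walls, was higher in the thalamus by 1.52 ± 0.22 on the log2 scale, at 29.1 to 38.1 CPM against 8.69 to 14.8 CPM in the hypothalamus. Lower in the thalamus were Col6a1 (-1.56 ± 0.28), Col6a3 (-1.55 ± 0.32), at 3.65 to 6.17 CPM against 12.5 to 20.6 CPM, and Loxl1 (-1.23 ± 0.20), at 5.05 to 5.66 CPM in the hypothalamus. None of these 4 pairs of groups overlapped. The hypothalamic neuron sum varied in the thalamic Sham + VH libraries, from 43.67 to 490.2 CPM, against 924.2 to 1881 CPM in the hypothalamic ones. Its part in these differences was not tested.

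The first question was which matrix genes changed with injury at 3 dpi in the ipsilateral hippocampus. Averaged over the vehicle and candesartan arms, 12 of the 35 genes (34.3%) were called, 10 higher and 2 lower in TBI mice, while 15.8% of the 16756 genes tested were called (13.3% higher and 2.47% lower). The 10 that rose were the integrin chains Itga5, Itgb1 and Itga1, the glycoproteins Fn1, Tnc and Sparc, the proteoglycans Vcan and Bgn, the cross-linking enzyme Loxl1 and the fibrillar collagen Col3a1. The 2 that fell were Ogn and Fbn1. The median log2 change of the 35 genes was 0.11, and the median of all genes tested lay near 0. By role the calls were 3 of 4 receptors, 5 of 6 matrix glycoproteins with versican (4 higher and 1 lower), 1 of 2 cross-linking enzymes, 2 of 5 small leucine-rich proteoglycans (1 higher and 1 lower) and 1 of 5 fibril-forming collagens. None of the 3 collagen VI chains, the 2 collagen IV chains or the 7 laminin, nidogen and perlecan genes was called. With the 4 libraries of high choroid plexus sum left out, a setting added after the values were seen, 13 genes were called, among them 11 of these 12. Fbn1 was the exception.

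**Figure D2:**
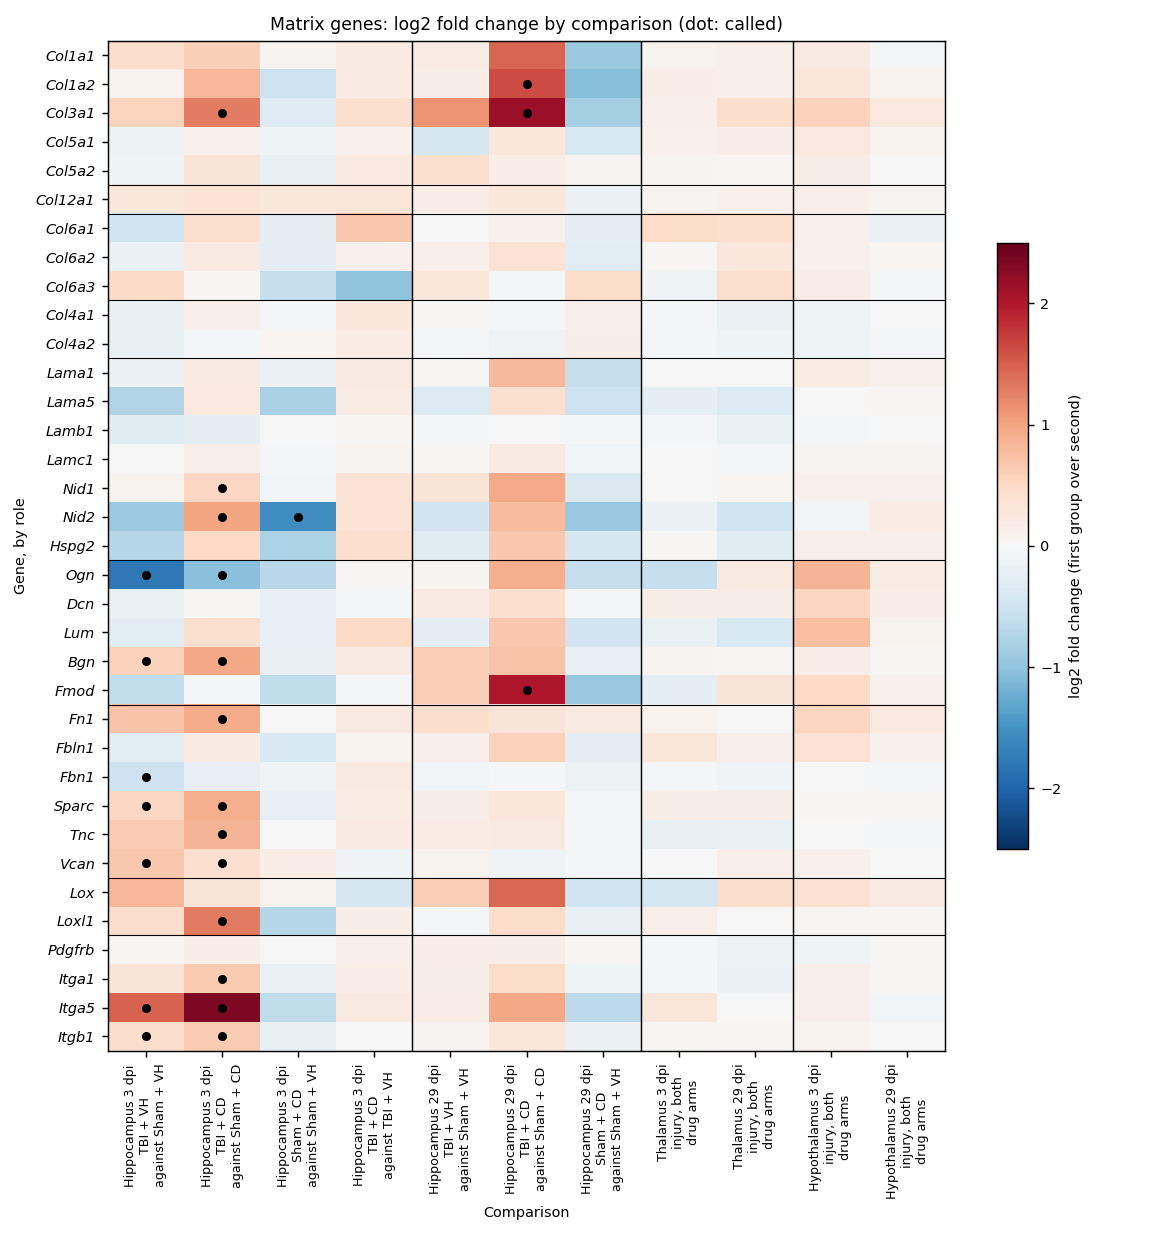
Log2 fold change of each of the 35 genes (rows, grouped by role) in 11 comparisons (columns), with a dot where the gene was called. The dots lie in the hippocampal columns at 3 dpi, with 3 more at 29 dpi in TBI + CD against Sham + CD, and the thalamic and hypothalamic columns hold none.

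Itga5 (chr15:103344286-103366763, minus strand, GRCm38) encodes the alpha chain of the fibronectin receptor, and its mean change over both arms was the largest of the 35 genes. It was 2.15, 2.25, 1.27 and 3.11 CPM in Sham + VH against 6.62, 3.83, 8.23 and 5.67 CPM in TBI + VH. In the candesartan arm it was 1.60, 1.64, 1.29 and 1.11 CPM in Sham + CD and 5.17, 3.51, 12.4 and 7.41 CPM in TBI + CD. All 8 TBI libraries were above all 8 sham libraries. The log2 fold change was 1.47 ± 0.34 in the vehicle arm (SE, edgeR FDR 0.00582), 2.33 ± 0.36 in the candesartan arm (FDR 1.03e-04) and 1.90 ± 0.25 over both.

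Itgb1 (chr8:128685654-128733200), the beta chain that pairs with Itga5, Itga1 and other alpha chains, was more abundant and changed less. Its libraries held 50.03, 51.5, 53.8 and 58.0 CPM in Sham + VH against 80.0, 57.2, 83.7 and 70.0 CPM in TBI + VH, and 47.3, 48.0, 49.6 and 43.9 CPM in Sham + CD against 62.7, 59.4, 86.0 and 83.4 CPM in TBI + CD. One TBI + VH library fell within the Sham + VH range and the candesartan groups did not overlap. Over both arms Itgb1 rose by 0.54 ± 0.08 (SE, edgeR FDR 8.72e-05). Itga1 rose by 0.49 ± 0.12 over both arms (edgeR FDR 0.00431), from 3.09 to 5.05 CPM in sham libraries to 4.42 to 7.25 CPM in TBI libraries. Pdgfrb, the PDGF receptor of pericytes and fibroblasts, was not called, with a log2 change of 0.11 ± 0.05 (edgeR FDR 0.13).

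The 300 bases around the start site of the gene that rose most and of the gene that fell most are shown for reference, from RefSeq promoter windows on GRCm38.p6 (250 bases before to 50 after the start), which were found for 23 of the 35 genes. Capitals mark 3 core promoter motifs on either strand. TATAAA occurs in 13.6% of the 32851 windows of this length, and the CAAT box motif CCAAT in 37.4%. The GC box motif GGGCGG occurs in 35.7% of them. The Itga5 window (chr15:103366742-103367041, minus strand, 58.7% G and C) held GGGCGG 2 times. The Ogn window (chr13:49607765-49608064, plus strand, 42.3% G and C) held TATAAA 2 times, on opposite strands and overlapping, more than 200 bases before the start. Each match is a run of letters and no binding was measured.
Itga5: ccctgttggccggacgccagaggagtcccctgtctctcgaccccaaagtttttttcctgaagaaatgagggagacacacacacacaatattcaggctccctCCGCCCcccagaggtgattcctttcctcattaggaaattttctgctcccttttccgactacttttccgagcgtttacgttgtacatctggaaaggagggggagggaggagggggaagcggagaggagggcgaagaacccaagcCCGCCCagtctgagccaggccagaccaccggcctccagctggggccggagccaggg
Ogn: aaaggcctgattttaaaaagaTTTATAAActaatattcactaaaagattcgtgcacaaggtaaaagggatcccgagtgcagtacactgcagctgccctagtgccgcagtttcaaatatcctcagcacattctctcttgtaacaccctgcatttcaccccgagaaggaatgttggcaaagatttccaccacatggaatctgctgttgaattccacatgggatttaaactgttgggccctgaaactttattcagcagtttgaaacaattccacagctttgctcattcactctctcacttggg

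Fn1 and Tnc are large adhesive glycoproteins of wounds and scars, and Fn1 is the ligand of the receptor with the Itga5 chain. Fn1 (chr1:71585520-71653200) was 54.5, 54.0, 34.2 and 57.5 CPM in Sham + VH against 97.1, 47.8, 99.0 and 82.4 CPM in TBI + VH, and 67.1, 47.2, 48.6 and 38.8 CPM in Sham + CD against 66.8, 64.5, 140.0 and 109.9 CPM in TBI + CD. The groups overlapped in both arms, through TBI + VH replicate 2 and through TBI + CD replicates 1 and 2. Its log2 fold change was 0.71 ± 0.26 in the vehicle arm, which did not pass (edgeR FDR 0.0831), and 0.81 ± 0.18 over both arms, which did (FDR 0.00206).

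Tnc (chr4:63959785-64047015) was 11.8, 15.2, 11.03 and 14.3 CPM in Sham + VH against 22.0, 15.3, 22.4 and 21.0 CPM in TBI + VH, and 15.01, 13.3, 11.6 and 11.9 CPM in Sham + CD against 17.9, 15.7, 38.1 and 22.0 CPM in TBI + CD. Every TBI library was above the sham libraries of its arm, in TBI + VH replicate 2 by a small margin. The log2 fold change over both arms was 0.74 ± 0.15 (SE, edgeR FDR 0.00103). TBI + CD replicate 3 was the highest library for Fn1, Tnc and Itga5 alike.

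Vcan, the large chondroitin sulphate proteoglycan versican, and Sparc rose with less spread. Vcan (chr13:89655312-89742509) was 17.4, 20.2, 26.9 and 18.8 CPM in Sham + VH against 33.7, 27.3, 34.96 and 36.8 CPM in TBI + VH, and 22.2, 23.0, 24.8 and 23.5 CPM in Sham + CD against 26.0, 28.3, 34.4 and 36.3 CPM in TBI + CD. Sparc (chr11:55394500-55423183) was 415, 391, 352 and 399 CPM in Sham + VH against 596, 538, 574 and 526 CPM in TBI + VH, and 365, 371, 361 and 249 CPM in Sham + CD against 587, 626, 662 and 655 CPM in TBI + CD. Neither gene's TBI groups overlapped the sham group of the same arm. Vcan rose by 0.55 ± 0.09 over both arms (SE, edgeR FDR 1.39e-04) and Sparc by 0.72 ± 0.07 (FDR 3.56e-07), the smallest FDR among the 35 genes.

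Bgn, the small leucine-rich proteoglycan biglycan (chrX:73483602-73495933), was 14.8, 17.9, 12.996 and 22.2 CPM in Sham + VH against 25.4, 22.2, 28.8 and 24.8 CPM in TBI + VH, and 19.1, 13.9, 13.9 and 12.8 CPM in Sham + CD against 29.2, 23.1, 30.0 and 35.1 CPM in TBI + CD. The lowest TBI + VH and highest Sham + VH libraries met at 22.2 CPM, while the candesartan groups were apart. Its log2 fold change over both arms was 0.77 ± 0.11 (SE, edgeR FDR 3.74e-05). Loxl1 (chr9:58287738-58313186) was 9.06, 6.95, 4.47 and 7.32 CPM in Sham + VH against 9.16, 7.55, 11.8 and 8.84 CPM in TBI + VH, and 4.79, 4.21, 3.27 and 4.69 CPM in Sham + CD against 10.2, 8.64, 11.4 and 11.5 CPM in TBI + CD. The vehicle groups overlapped and the candesartan groups did not, with log2 fold changes of 0.43 ± 0.18 (edgeR FDR 0.141) and 1.30 ± 0.19 (FDR 6.37e-05). The difference between these 2 responses did not pass the test of the interaction (0.87 ± 0.26, FDR 0.151).

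Ogn encodes osteoglycin, also called mimecan, a small leucine-rich proteoglycan that binds collagen fibrils and is expressed by meningeal fibroblasts. The gene lies at chr13:49608046-49624501. It fell from 10.1, 10.1, 10.2 and 11.96 CPM in Sham + VH to 3.96, 2.01, 2.60 and 3.68 CPM in TBI + VH. In the candesartan arm it was 5.61, 6.13, 6.59 and 7.88 CPM in Sham + CD and 5.27, 2.48, 1.35 and 3.69 CPM in TBI + CD. TBI and sham libraries did not overlap, and all Sham + CD libraries lay between the Sham + VH and TBI + VH groups. The log2 fold change was -1.78 ± 0.28 in the vehicle arm (SE, edgeR FDR 2.00e-04), -1.05 ± 0.28 in the candesartan arm (FDR 0.00762) and -1.42 ± 0.20 over both. The difference of Sham + CD from Sham + VH, -0.69 ± 0.26, did not pass (FDR 0.205). Sham + VH replicate 3, the 1 library of its group with a low choroid plexus sum, held 10.2 CPM of Ogn, within the range of the other 3. TBI + CD replicate 1, the TBI library with a high sum, held 5.27 CPM, the highest of the TBI libraries. The part of this tissue in the fall of Ogn was not tested.

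Of the 4 other members of that family, Bgn rose by 0.77 ± 0.11 over both arms. Dcn, Lum and Fmod had log2 changes over both arms of -0.07 ± 0.25, 0.07 ± 0.14 and -0.31 ± 0.34, and none was called. Fbn1 (chr2:125300594-125507993), the fibrillin of elastic microfibrils, was 22.3, 18.2, 13.6 and 20.9 CPM in Sham + VH against 11.4, 13.2, 13.3 and 14.3 CPM in TBI + VH, and 18.1, 17.0, 16.5 and 18.6 CPM in Sham + CD against 19.0, 13.3, 14.0 and 14.5 CPM in TBI + CD. The groups overlapped in both arms, and Sham + VH replicate 3 lay among the TBI + VH libraries. Fbn1 changed by -0.37 ± 0.09 over both arms (SE, edgeR FDR 0.00542), and this call was lost with the choroid plexus score as a covariate or without the libraries of high choroid plexus sum.

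**Figure D3:**
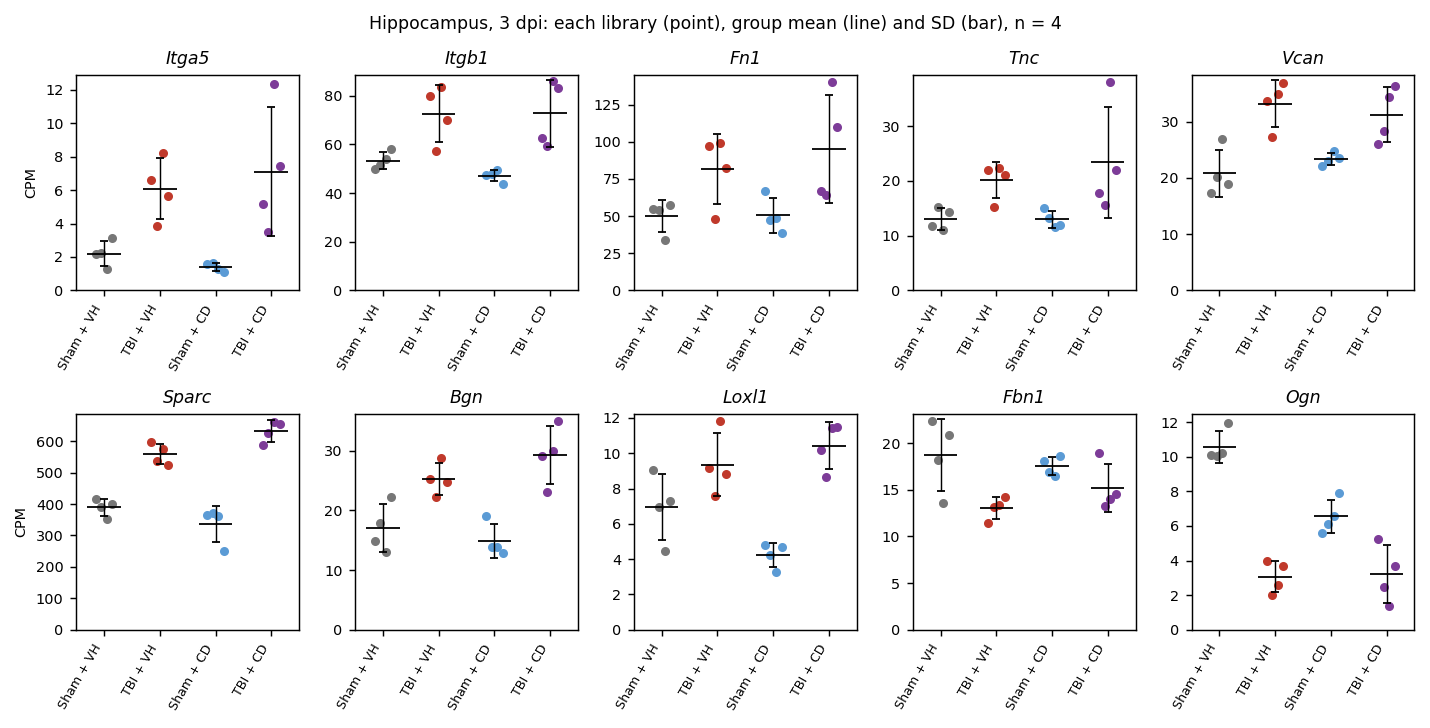
CPM of 10 genes in each hippocampal library at 3 dpi (points) by group, with the group mean (line) and SD (bar, n = 4). Itga5, Sparc, Vcan and Tnc are higher and Ogn is lower in all TBI libraries than in the sham libraries of the same arm.

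Among the fibril-forming collagens Col3a1 (chr1:45311538-45349706), the collagen III chain of loose connective tissue and vessel walls, was called over both arms (0.92 ± 0.27, edgeR FDR 0.0117). It was 3.39, 3.45, 2.25 and 4.79 CPM in Sham + VH against 7.24, 3.27, 5.24 and 4.72 CPM in TBI + VH, and 4.65, 2.93, 1.78 and 1.83 CPM in Sham + CD against 7.41, 2.29, 9.57 and 8.01 CPM in TBI + CD. All of its groups overlapped, and TBI + CD replicate 2 was within the sham range. Col1a1 and Col1a2, the chains of collagen I, had log2 changes of 0.52 ± 0.21 (edgeR FDR 0.0633) and 0.46 ± 0.24 (FDR 0.145). Col5a1 and Col5a2 were at -0.01 ± 0.14 and 0.11 ± 0.13. Col12a1, a collagen that coats fibrils, was at 0.31 ± 0.14, and Col6a1, Col6a2 and Col6a3 were at -0.05 ± 0.21, 0.03 ± 0.19 and 0.27 ± 0.33.

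Of the basement membrane genes, the 2 collagen IV chains were not called in any of the 7 comparisons of the hippocampus at 3 dpi. Col4a1 was 69.1 to 81.1 CPM in Sham + VH against 56.0 to 73.4 CPM in TBI + VH. With candesartan it was 69.4 to 76.6 CPM in sham and 76.3 to 86.6 CPM in TBI libraries. Col4a2 was 94.5 to 114.5 CPM in Sham + VH against 81.9 to 101.8 CPM in TBI + VH, and 100.2 to 118.1 CPM in Sham + CD against 98.1 to 115.5 CPM in TBI + CD. Sham and TBI groups overlapped in both arms, and the log2 changes over both arms were -0.03 ± 0.05 and -0.11 ± 0.06. Lamc1 and Lama1 were at 0.07 ± 0.05 and 0.03 ± 0.14. Lamb1 passed the FDR threshold with a log2 change of -0.27 ± 0.06 (edgeR FDR 0.00176), which is smaller than the fold threshold. Nid1, the nidogen that links laminin to collagen IV, was at 0.30 ± 0.12 (FDR 0.0618). In TBI + CD against Sham + CD Nid1 (0.51 ± 0.17) and Nid2 (0.98 ± 0.34) were called higher. Nid1 lost this call when 1 of 5 libraries was left out, Sham + CD replicates 2, 3 and 4 and TBI + CD replicates 3 and 4 (FDR up to 0.0951), and Nid2 without any 1 of the Sham + CD libraries or TBI + CD replicate 1 or 3 (FDR up to 0.112).

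Col4a1 and Col4a2, whose chains assemble into 1 collagen IV molecule, stand head to head on chr8. Their gene models (chr8:11198423-11312826, minus strand, and chr8:11312805-11449287, plus strand) overlap by 22 bases, and their RefSeq promoter windows share 78 bases, chr8:11312777-11312854. Both windows are printed, each 5′ to 3′ on its own gene's strand, because the pair shares this start region; capitals mark the same motifs. Col4a1 held CCAAT 1 time and GGGCGG 1 time, and Col4a2 held them 1 and 3 times. Reads over the shared bases are uncertain, since the libraries were made with a stranded kit but the strand setting of the counting and the handling of reads that fit 2 genes are not given in the sources used here.
Col4a1: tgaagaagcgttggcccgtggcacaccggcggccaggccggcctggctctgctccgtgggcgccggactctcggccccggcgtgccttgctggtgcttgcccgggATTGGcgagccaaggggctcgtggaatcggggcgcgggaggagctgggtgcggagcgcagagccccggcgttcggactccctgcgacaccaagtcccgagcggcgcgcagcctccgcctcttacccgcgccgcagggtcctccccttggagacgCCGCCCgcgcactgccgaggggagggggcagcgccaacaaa
Col4a2: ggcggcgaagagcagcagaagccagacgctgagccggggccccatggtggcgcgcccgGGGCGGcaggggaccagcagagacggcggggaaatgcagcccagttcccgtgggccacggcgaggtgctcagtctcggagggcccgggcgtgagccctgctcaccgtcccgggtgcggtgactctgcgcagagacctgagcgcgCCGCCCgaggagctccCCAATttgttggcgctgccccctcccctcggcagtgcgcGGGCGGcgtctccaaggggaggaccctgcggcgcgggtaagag

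Nid2, Lama5 and Hspg2, which encode a nidogen, a laminin alpha chain and perlecan, followed the choroid plexus list. Nid2 (chr14:19751265-19811787) was 12.9, 11.7, 2.91 and 12.2 CPM in Sham + VH against 5.29, 5.18, 6.10 and 4.72 CPM in TBI + VH, and 3.33, 3.41, 3.12 and 3.75 CPM in Sham + CD against 9.78, 4.10, 6.94 and 6.21 CPM in TBI + CD. The 4 libraries with a high choroid plexus sum held 9.78 to 12.9 CPM of Nid2 and the other 12 held 2.91 to 6.94 CPM. Among those 12, the sham libraries held 2.91 to 3.75 CPM and the TBI libraries 4.10 to 6.94 CPM, without overlap. Lama5 was 20.1 to 24.3 CPM in those 4 and 8.32 to 13.1 CPM in the other 12, and Hspg2 was 15.5 to 18.4 and 6.94 to 11.9 CPM. At 29 dpi Lama5 was 11.5 to 32.5 CPM in the 7 libraries above 1000 CPM of the list and 8.98 to 12.7 CPM in the other 9, so the ranges overlapped there. Nid2 likewise was 5.08 to 17.2 and 2.75 to 5.24 CPM, and Hspg2 6.94 to 22.8 and 4.95 to 12.8 CPM.

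**Figure D4:**
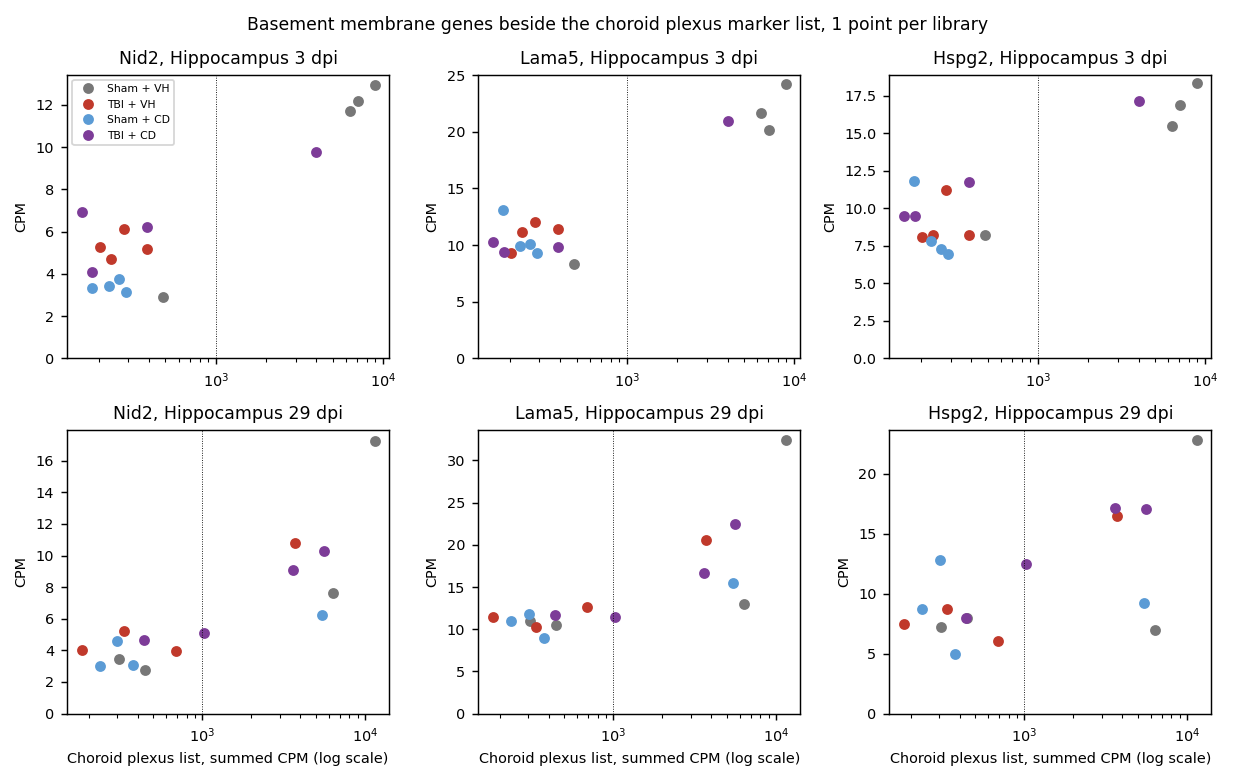
CPM of Nid2, Lama5 and Hspg2 in each hippocampal library (points coloured by group) against the summed CPM of 20 choroid plexus genes on a log scale, at 3 dpi (top) and 29 dpi (bottom), with a dotted line at 1000 CPM. At 3 dpi the 4 libraries to the right of the line are the 4 highest for each gene.

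The comparisons of single groups at 3 dpi rested on fewer libraries. In the vehicle arm 7 genes were called against Sham + VH (Itga5, Itgb1, Vcan, Sparc and Bgn higher, Ogn and Fbn1 lower), beside 10.7% of all genes (8.99% higher and 1.72% lower). That count was 0 with the choroid plexus score as a covariate, 4 without the libraries of high choroid plexus sum, which leaves Sham + VH replicate 3 alone in its group, and 4 without Sham + VH replicate 1. With the covariate all 7 kept their directions, at edgeR FDRs from 0.0511 for Ogn to 0.962 for Fbn1, whose log2 change was then -0.02. Those of the others were -1.24 for Ogn, 0.52 for Sparc, 0.79 for Bgn, 1.31 for Itga5, 0.32 for Vcan and 0.29 for Itgb1. TBI + CD against Sham + VH called 9 genes (Itga5, Itgb1, Vcan, Sparc, Bgn, Fn1, Tnc and Loxl1 higher, Ogn lower), beside 12.1% (10.3% higher and 1.86% lower), and 4 with the covariate. These 2 comparisons share their control libraries. TBI + CD against Sham + CD called 13 genes, 12 higher and 1 lower, beside 20.1% of all genes (14.4% higher and 5.67% lower). It contained the 9 genes just named, Col3a1, Nid1 (0.51 ± 0.17), Nid2 (0.98 ± 0.34) and Itga1 (0.65 ± 0.17), and 14 genes were called either with the covariate or without the libraries of high choroid plexus sum.

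The second question was whether candesartan moved these genes. In injured mice at 3 dpi, TBI + CD against TBI + VH called none of the 35 genes and 0% of all genes in edgeR, and DESeq2 also called none of the 35. At an unadjusted p under 0.05 there were 5 of the genes and 732 of all genes. The smallest p belonged to Col4a1 (log2 difference 0.26 ± 0.08, edgeR FDR 0.999). Of the 35 genes 30 had a positive difference, with a median of 0.19, while the median of all genes tested lay near 0. All 14 mural and all 13 endothelial marker genes tested also had a positive difference, with medians of 0.20 and 0.27. The mural sum was 100.6 to 135.2 CPM in TBI + VH and 117.0 to 182.1 CPM in TBI + CD, and the endothelial sum 203.4 to 273.3 and 245.2 to 301.0 CPM. All 20 choroid plexus genes had a positive difference too, with a median of 1.91 and a sum of 202.1 to 385.5 CPM in TBI + VH and 157.5 to 4001 CPM in TBI + CD. None of these markers was called, and their part in the differences of the 35 genes was not tested. Of the 35 genes 2 exceeded 0.5 in size, Col6a1 (0.67 ± 0.29) and Col6a3 (-1.02 ± 0.46). Col6a3 was 3.46, 12.03, 3.72 and 7.88 CPM in TBI + VH and 4.10, 2.84, 2.70 and 3.69 CPM in TBI + CD, with overlapping groups.

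In sham mice at 3 dpi 1 gene, Nid2, was called, beside 1.5% of all genes (0.0836% higher and 1.41% lower), at a log2 difference of -1.54 ± 0.33 (SE, edgeR FDR 0.0294) for Sham + CD against Sham + VH. The 4 Sham + CD libraries all had a low choroid plexus sum, and so did Sham + VH replicate 3, which held less Nid2 than every Sham + CD library. Without the libraries of high choroid plexus sum the difference was 0.23, in the other direction, and no gene was called. The call was absent when any of Sham + VH replicates 1, 2 and 4 or any Sham + CD library was left out, and 4 genes were called without Sham + VH replicate 3. The interaction of injury and candesartan called none of the 35 genes and 0% of all genes, with 8 of the 35 and 2196 of the 16756 genes tested at an unadjusted p under 0.05. Nid2 (1.88 ± 0.46) had the smallest FDR, 0.0832, and DESeq2 called 2 genes, Nid2 and Hspg2. Without Sham + VH replicate 3, 4 genes were called for the interaction, and without TBI + CD replicate 2 it was 1.

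The third question was what remained at 29 dpi in the hippocampus. Over both arms 4 genes were called, all higher in TBI mice, beside 1.62% of all genes (1.59% higher and 0.0297% lower). They were Col3a1 (1.63 ± 0.25, edgeR FDR 0.00125), Fmod (1.32 ± 0.28, FDR 0.0167), Col1a2 (0.89 ± 0.22, FDR 0.0437) and Bgn (0.67 ± 0.13, FDR 0.0105). Fmod encodes fibromodulin, a small leucine-rich proteoglycan that binds fibrillar collagen. None of these 4 was called without the 7 libraries of high choroid plexus sum, which leaves 1 TBI + CD library, where the log2 changes were 1.51 for Col3a1, 1.04 for Fmod, 0.72 for Col1a2 and 0.55 for Bgn, at edgeR FDRs from 0.0715 for Col3a1 to 0.399 for Col1a2. Col1a2 lost its call in 14 of 23 alternatives. TBI + VH against Sham + VH called none of the 35 genes in edgeR or DESeq2, with 3 (and 1343 of all genes) at an unadjusted p under 0.05, beside 0.529% of all genes. TBI + CD against Sham + VH called none in edgeR, with 6 (and 1245 of all genes) at an unadjusted p under 0.05, beside 0.119%, and DESeq2 called 1, Col3a1. Neither Sham + CD against Sham + VH nor TBI + CD against TBI + VH called a gene of the 35 or of all genes in edgeR, and DESeq2 called none of the 35. At an unadjusted p under 0.05 there were 6 of the 35 and 810 of the 16832 genes tested in the first of these comparisons, and 0 of the 35 and 893 of all genes in the other.

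Col3a1 at 29 dpi was 4.95, 3.00, 1.78 and 2.02 CPM in Sham + VH against 7.46, 5.34, 9.98 and 3.58 CPM in TBI + VH, and 1.83, 1.63, 1.52 and 1.84 CPM in Sham + CD against 7.08, 11.02, 6.93 and 4.52 CPM in TBI + CD. The candesartan groups did not overlap, and the vehicle groups did. Col1a2 (chr6:4504814-4541544) was 22.9, 6.74, 14.5 and 9.44 CPM in Sham + VH against 21.6, 15.9, 11.3 and 12.9 CPM in TBI + VH, and 5.80, 5.80, 7.58 and 7.14 CPM in Sham + CD against 17.8, 29.9, 22.3 and 12.9 CPM in TBI + CD. Its vehicle groups overlapped almost wholly, and the Sham + CD libraries were low and close together.

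Fmod (chr1:134037254-134048277) was 20.3, 4.87, 11.7 and 8.38 CPM in Sham + VH against 26.0, 17.2, 13.4 and 16.3 CPM in TBI + VH, and 7.94, 6.94, 4.97 and 5.95 CPM in Sham + CD against 18.4, 49.2, 19.8 and 14.1 CPM in TBI + CD. Bgn was 21.8, 15.6, 14.7 and 13.4 CPM in Sham + VH against 23.1, 24.3, 35.1 and 19.6 CPM in TBI + VH, and 16.6, 14.3, 12.97 and 14.3 CPM in Sham + CD against 21.1, 30.0, 24.5 and 18.7 CPM in TBI + CD. For both, the candesartan groups were apart and the vehicle groups overlapped. TBI + CD against Sham + CD called 3 genes, Col3a1 (2.14 ± 0.36), Fmod (2.03 ± 0.40) and Col1a2 (1.64 ± 0.31), beside 0.356% of all genes (0.351% higher and 0.00594% lower). That count fell to 0 without Sham + CD replicate 2, 3 or 4, to 1 without Sham + CD replicate 1 or TBI + CD replicate 2 or 3, and to 0 without the libraries of high choroid plexus sum. It was 6 in DESeq2, and 5 with only the groups compared or with a replicate block. The interaction called none of the 35 genes at 29 dpi in edgeR or DESeq2 (0% of all genes, 6 of the 35 and 890 of all genes at an unadjusted p under 0.05), with FDR 0.892 for Col3a1, Fmod and Col1a2, so the larger values in the candesartan arm were not shown to differ from those in the vehicle arm.

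Ogn was not called in the hippocampus at 29 dpi. It was 20.7, 5.12, 7.20 and 11.6 CPM in Sham + VH against 16.2, 10.2, 10.7 and 10.9 CPM in TBI + VH, with overlapping groups and a log2 fold change of 0.07 ± 0.34. With candesartan it was 7.17, 8.05, 8.12 and 6.83 CPM in sham against 14.3, 22.0, 12.955 and 7.45 CPM in TBI libraries, of which 3 lay above every Sham + CD library, with a log2 fold change of 0.91 ± 0.34 (edgeR FDR 0.355). The vehicle response of Ogn at 3 dpi less that at 29 dpi was -1.85 ± 0.47 (SE, edgeR FDR 0.0197), and Ogn was the 1 gene of the 35 called for this difference beside 3.16% of all genes. The Ogn call was kept without replicate 1 and lost without replicate 2, 3 or 4, each number left out in both cohorts, where the Ogn difference stayed negative. Without replicate 2 the 1 gene called was Itgb1.

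**Figure D5:**
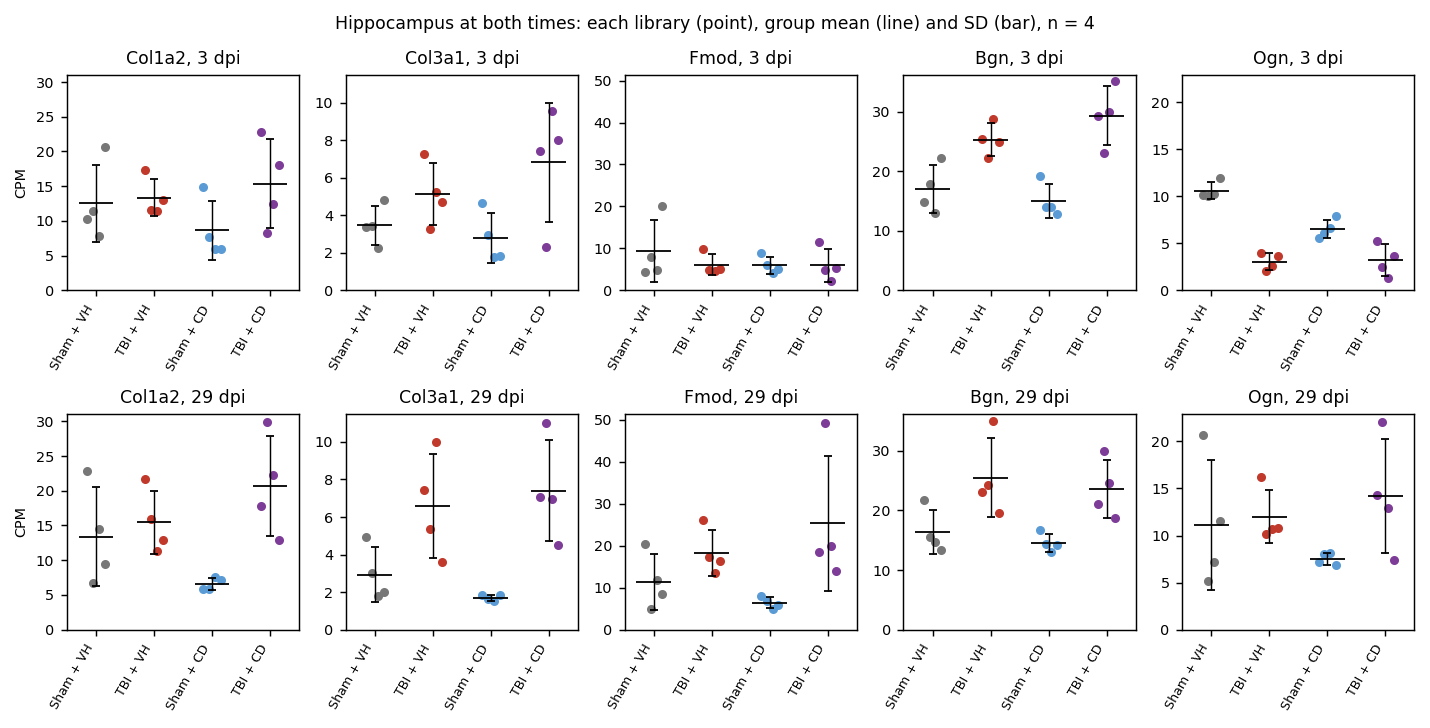
CPM of 5 genes in each hippocampal library at 3 dpi (top) and 29 dpi (bottom) by group, with the group mean (line) and SD (bar, n = 4), on the same axis for each gene. Ogn is low in the TBI libraries at 3 dpi and not at 29 dpi, while the 4 TBI + CD libraries at 29 dpi lie above the 4 Sham + CD libraries for Col1a2, Col3a1, Fmod and Bgn.

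Outside the hippocampus none of the 35 genes was called by edgeR in any of 28 comparisons, with between 0 and 8 of them, and between 344 and 2269 of all genes, at an unadjusted p under 0.05 in a comparison. DESeq2 called Lama5 in 2 of these, thalamus at 29 dpi over both arms and hypothalamus at 29 dpi for Sham + CD against Sham + VH. In the thalamus at 29 dpi Lama5 was 21.87 to 28.86 CPM in the 8 sham and 16.99 to 21.06 CPM in the 8 TBI libraries, without overlap. The choroid plexus sum there had medians of 2217 CPM in Sham + VH, 340.9 in Sham + CD, 331.8 in TBI + VH and 358.5 in TBI + CD. Its part in Lama5 was not tested. The share of all genes called over both arms was 0.907% in the thalamus at 3 dpi, 0.0177% in the hypothalamus at 3 dpi, 0% in the thalamus at 29 dpi and 0.00583% in the hypothalamus at 29 dpi. For single groups of the thalamus at 3 dpi it was 0.298% in TBI + VH and 0.418% in TBI + CD against Sham + VH, and 0.179% in TBI + CD against Sham + CD (0.167% higher and 0.0119% lower). The largest changes over both arms at 3 dpi were in Ogn, -0.57 ± 0.22 in the thalamus (edgeR FDR 0.499) and 0.84 ± 0.50 in the hypothalamus (FDR 0.672). Ogn in the hypothalamus was 4.03, 6.84, 5.48 and 4.61 CPM in Sham + VH against 3.42, 26.9, 6.45 and 4.31 CPM in TBI + VH, and 4.66, 14.5, 4.77 and 3.80 CPM in Sham + CD against 4.33, 6.03, 30.3 and 4.46 CPM in TBI + CD. Single libraries stood far above the rest there. In the thalamus at 3 dpi Ogn was 1.97 to 6.56 CPM in Sham + VH, against 2.32 to 3.67 CPM in TBI + VH.

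The difference of the vehicle injury response between regions was tested in the fit of all 48 libraries at 3 dpi. Vcan was the 1 gene called for hippocampus less thalamus, beside 3.88% of all genes (3.51% higher and 0.365% lower), at 0.64 ± 0.15 (SE, edgeR FDR 0.00601). Thalamic Vcan was 22.3, 22.5, 24.2 and 22.9 CPM in Sham + VH against 22.3, 25.2, 24.3 and 20.7 CPM in TBI + VH, with no separation. For hippocampus less hypothalamus 4 genes were called, beside 5.82% of all genes (4.92% higher and 0.899% lower). They were Vcan (0.58 ± 0.15), Sparc (0.46 ± 0.13), Hspg2 (-0.93 ± 0.28) and Ogn (-2.76 ± 0.72). Each lost its call when some replicate numbers were left out: Vcan without 1 or 4, Sparc without 1, 2 or 3, Hspg2 without 1, 2 or 4, and Ogn without 2, where its difference was -1.72. Without the libraries of high choroid plexus sum none of the 35 genes was called in either comparison, beside 0.728% and 2.33% of all genes. Vcan was then at 0.24 against the thalamus and 0.20 against the hypothalamus, Sparc at 0.59, Hspg2 at -0.10 and Ogn at -2.72, with 1 Sham + VH library left in the hippocampus.

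In the hypothalamus Vcan was 30.7, 30.0, 36.2 and 41.0 CPM in Sham + VH against 36.9, 37.3, 34.8 and 36.7 CPM in TBI + VH, and Sparc was 2544, 2534, 2307 and 2147 CPM and 2390, 2541, 2277 and 2639.8 CPM. The groups of both genes overlapped there. Hspg2 in the hippocampus was 18.4, 15.5, 8.20 and 16.9 CPM in Sham + VH against 8.08, 8.26, 11.2 and 8.22 CPM in TBI + VH, and the 3 high libraries are those with a high choroid plexus sum. In the hypothalamus it was 12.1, 8.92, 14.5 and 10.6 CPM in Sham + VH against 12.5, 13.7, 16.8 and 9.93 CPM in TBI + VH, with overlapping groups. The count for the hypothalamus was 1 without replicate 1 and 2 without replicate 2 or 4, and for the thalamus it was 0 without replicate 1, 3 without replicate 3 and 2 without replicate 4. Vcan lost its call against the thalamus without replicate 1 or 4, and the 2 genes called without replicate 4 were Col6a1 and Sparc.

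Other genes of the same pathways were counted from fixed lists, in the hippocampus at 3 dpi over both arms, where 13.3% of all genes tested were called higher and 2.47% lower. Of 50 other matrix glycoproteins and proteoglycans 18 rose and 1 fell. The largest changes were in Spp1, the secreted phosphoprotein osteopontin (4.62 ± 0.56), Thbs4, a thrombospondin (2.10 ± 0.16), and Ecm1 (1.64 ± 0.13). The most abundant were Sparcl1, Nell2 and Bcan at -0.14, -0.22 and -0.09 on the log2 scale, none of them called. Of 20 other integrins and matrix receptors 10 rose and 2 fell, led by the hyaluronan receptor Cd44 (2.78 ± 0.26), Itgb5 (1.16 ± 0.09) and Itga6 (0.87 ± 0.09), and the abundant Sdc3, Dag1 and the collagen receptor Ddr1 were at 0.32, 0.16 and 0.75, the last of these called.

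Of 31 genes of collagen maturation 8 rose and none fell, among them the prolyl hydroxylase subunit P4ha3 (2.32 ± 0.13), the chaperone Fkbp10 (1.04 ± 0.09) and the lysyl hydroxylase Plod1 (0.96 ± 0.08). The most abundant, P4hb, Mia3 and Ppib, were at 0.45, -0.13 and 0.32, and P4hb was called. Of 32 other collagens 8 rose and 3 fell, with Col4a6 (2.18 ± 0.25), Col16a1 (1.30 ± 0.13) and Col20a1 (1.09 ± 0.11) the largest. The abundant Col25a1 was lower (-0.34, edgeR FDR 3.55e-04), and Col11a2 and Col9a3 were not called. Of 11 other basement membrane genes Lamb2 (0.46 ± 0.09) and Lama4 (0.35 ± 0.12) rose, Npnt (-0.34 ± 0.10) fell, and the abundant Egfl7 was at -0.03. Of 19 genes of TGF-beta and PDGF signalling 4 rose and none fell, among them Tgfb1 (1.51 ± 0.16) and the receptor Tgfbr2 (0.93 ± 0.12), and Smad3, Pdgfra and Skil, the most abundant, not called.

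At 29 dpi over both arms 4 of the 32 other collagens, 2 of the 31 maturation genes, 8 of the 50 other glycoproteins and proteoglycans, 1 of 11, 1 of 20 and 1 of 19 in the last 3 lists were called, all higher, where 1.59% of all genes tested were called higher. P4ha3 (1.10 ± 0.09), Spp1 (1.88 ± 0.20), Cd44 (1.05 ± 0.13), Col4a6 (1.05 ± 0.23), Lamb2 (0.39 ± 0.09) and Tgfb1 (0.50 ± 0.12) were among those called at both times.

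Marker lists of cells that can express these genes were counted in the same comparison, in which 15.8% of all genes were called. Of 11 measured genes of infiltrating and border macrophages 10 rose, and their list summed to between 12.4 and 22.9 CPM in sham and between 58.0 and 209.4 CPM in TBI libraries, with Lyz2 (3.93), Gpnmb (3.36) and Mrc1 (1.01) the most abundant. Of 19 measured genes of meningeal and perivascular fibroblasts 3 rose and 1, Igf2, fell, and the list of 20 summed to between 218.4 and 521.3 CPM in sham and between 227.8 and 442.2 CPM in TBI libraries, with Igf2, Pdgfra and Vtn the most abundant. Pdgfra is also a marker of oligodendrocyte precursors and Vtn of pericytes, so the sum is not of fibroblasts alone. It was highest in the same 4 libraries as the choroid plexus sum, at 394.4 CPM or more against 292.8 CPM or less. Of 14 mural cell genes 2 (14.3%) rose, Tagln and Notch3, with Cspg4, Rgs5 and Tagln the most abundant. Of 13 endothelial genes 1 (7.69%) fell, Kdr, with Slc2a1, Slco1a4 and Flt1 the most abundant. Of the 20 choroid plexus genes 2 (10%) were lower, Kl and Sostdc1, and Ttr, Enpp2 and Kl were the most abundant. At 29 dpi, where 1.59% of all genes were called higher and 0.0297% lower, 8 of the 19 fibroblast genes rose and none fell, and their sum was 220.6 to 586.3 CPM in sham and 284.4 to 589.2 CPM in TBI libraries, while the macrophage sum was 12.6 to 25.5 and 37.4 to 92.7 CPM. The part of these cells in the changes of the 35 genes was not tested.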

How the data were processed

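Bulk mRNA-seq was analysed from 96 libraries. The authors aligned reads to mm10 with MapSplice, counted them with HTSeq 0.9.1 and deposited raw counts per gene (whole numbers, not normalized), and their submitted processing notes also name DESeq2 1.16.1. The libraries were stranded, and the annotation and the strand setting of the counting were not given in the sources used here. Groups and replicate numbers were taken from the labels, and 0 columns were left without a library. Which libraries of different regions came from the same mouse is not stated, so p-values measure the spread between libraries treated as independent.

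Counts were compared with edgeR 4.0.16 in R 4.3.3, with filterByExpr, TMM scaling and the 2-sided quasi-likelihood F test on the 16 libraries of each region and time, or on 48 and 32 libraries for differences between regions and times. Genes were called at an FDR under 0.05 over all genes tested with an absolute log2 fold change over 0.32. The SE is the log2 fold change divided by the square root of F. CPM are TMM-scaled. The fit was tested on simulated data. DESeq2 1.42.0 was an alternative, beside RLE factors, no filter, the FDR alone, a replicate block, a choroid plexus covariate, only the groups compared, each library left out, and the libraries of high choroid plexus sum left out (added after the data were seen). Gene models are GENCODE vM21, and sequences are from RefSeq.

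The genes and lists were chosen with earlier results of these data known. All 35 genes are accounted for. Values per library are given for the 10 called genes with the largest changes of TBI + VH or TBI + CD against Sham + VH in the hippocampus at 3 dpi, for genes called in comparisons with at most 6 calls or in differences between regions and times (the 4 largest, some as ranges), and for Ogn. Of each other pathway list the 3 most abundant genes and the 3 largest called changes are named, and of each marker list the 3 most abundant, except 1 item that is not reported here. Col3a1, Itga1, Col4a1, Col4a2, Col6a3 and Lama5 are given further values outside that rule, and marker genes named as called lie outside it too, all chosen after their values were seen.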

Additional observations from a re-analysis of the deposited data

Results flagged for a closer look

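Single libraries stood apart from the other 3 of their group in 9 of 92 groups examined, over the genes given per library, by Dixon's gap-to-range ratio above its 95% critical value, which chance exceeds in about 1 in 20 groups. In the hippocampus at 3 dpi these were Sham + VH replicate 3, lowest for Fn1 at 34.2 CPM and for Nid2 at 2.91 CPM, Sham + VH replicate 4, highest for Ogn at 12 CPM, and Sham + CD replicate 4, lowest for Sparc at 249.0 CPM. In the hippocampus at 29 dpi they were TBI + CD replicate 2, highest for Fmod at 49.2 CPM, and TBI + VH replicate 1, highest for Ogn at 16.2 CPM. Ogn in the hypothalamus at 3 dpi stood apart in 3 groups, in TBI + VH replicate 2 at 26.9 CPM, Sham + CD replicate 2 at 14.5 CPM and TBI + CD replicate 3 at 30.3 CPM.

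The vehicle injury response differed between regions or times in 6 cases by edgeR's test of the difference. Hippocampus less thalamus gave 0.642 for Vcan. Hippocampus less hypothalamus gave 0.584 for Vcan, 0.462 for Sparc, -0.926 for Hspg2 and -2.76 for Ogn, on the log2 scale. The Ogn and Hspg2 values rest in part on libraries named above and in the report, the hypothalamic TBI + VH replicate 2 and the hippocampal Sham + VH libraries of high choroid plexus sum. None of these 5 differences between regions was called without the libraries of high choroid plexus sum. For the hippocampus, 3 dpi less 29 dpi gave -1.85 for Ogn.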

How the results depend on the processing

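The 48 counts of called genes stayed within 1.5 times in 994 recomputations and did not in 48. Of these counts, the 28 outside the hippocampus were 0, and a 0 that stayed 0 was taken as unchanged. The tally therefore does not measure how firm the calls were. The 113 called gene values kept direction and call in 1648 recomputations, fell short of the threshold in 147 and reversed in 5. In the hippocampus at 3 dpi, DESeq2 called 3 genes for Sham + CD against Sham + VH and 2 for the interaction. With the choroid plexus score as a covariate the counts were 0 for TBI + VH and 4 for TBI + CD against Sham + VH, and 0 for Sham + CD against Sham + VH. A fit of only the groups compared called 11 for TBI + VH. Without the libraries of high choroid plexus sum, chosen after the data were seen, TBI + VH called 4 and Sham + CD against Sham + VH 0, where Nid2 reversed to 0.23. Between regions the same setting gave 0 for hippocampus less thalamus and for hippocampus less hypothalamus, and for Sham + VH levels 13 against the thalamus, where Hspg2 reversed to -0.26, and 12 against the hypothalamus, where Nid2 reversed to -0.000805, Hspg2 to -0.29 and Loxl1 to -0.13. At 29 dpi in the hippocampus DESeq2 called 1 for TBI + CD against Sham + VH and 6 for TBI + CD against Sham + CD, only the groups compared gave 5 for the latter, and without those libraries it and injury over both arms gave 0. DESeq2 called 1 for injury in the thalamus and 1 for Sham + CD in the hypothalamus at 29 dpi, and 2 for hippocampus less thalamus. The labels do not say whether replicate numbers pair samples, and same-numbered libraries correlated above 0.1 in 4 to 15 of 24 pairs per set. Their mean correlation was 0.138 in the thalamus at 3 dpi and 0.136 in the hypothalamus at 29 dpi. Libraries of other numbers were at -0.0456 and -0.046 there. In the other sets the same-number mean was 0.00218 to 0.0325, so pairing was left undecided. The replicate block gave 5 for TBI + CD against Sham + CD and 7 for injury over both arms in the hippocampus at 29 dpi, and 2 for 3 dpi less 29 dpi.

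Leaving out single libraries, the hippocampal counts at 3 dpi ranged from 4 to 10 for TBI + VH and 6 to 13 for TBI + CD against Sham + VH, 0 to 4 for Sham + CD against Sham + VH, 10 to 16 for TBI + CD against Sham + CD, 12 to 16 over both arms and 0 to 4 for the interaction. At 29 dpi they ranged from 0 to 4 for TBI + CD against Sham + CD and 3 to 6 over both arms. Leaving out a replicate number, they ranged from 0 to 3 for hippocampus less thalamus, 1 to 5 for hippocampus less hypothalamus and 0 to 1 for 3 dpi less 29 dpi. The causes were not tested.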
